A study of Mus musculus with 6 samples.

Results

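The 40 genes described here encode proteins of the skeletal muscle fibre: 15 belong to fast-twitch fibres, 10 to slow-twitch fibres and 15 are shared by the fibre types. They were chosen by name, and all 40 were measured, by 66 probe sets, among 18193 named genes on the array. Where several probe sets read a gene, the values given are those of its brightest set, by the mean over all 6 arrays, unless another is named. RNA came from whole mammary glands of virgin female FVB/N mice aged 4 months, 3 glands of mice without caveolin-3 (Cav-3KO, here knockout 1 to 3) against 3 of wild-type mice (wild-type 1 to 3). Caveolin-3 is the coat protein of caveolae in muscle cells. Neither group was treated, and the labels name no Cre, promoter or deleted exon and do not say whether each gland came from a separate mouse. If the glands did not, p-values measure only the spread between these samples. The gene missing in the knockout, Cav3, read 4.76, 4.83 and 4.72 in knockout and 4.79, 5.02 and 4.74 in wild type on the log2 scale (knockout minus wild type -0.08 ± 0.10, SE, limma adjusted p = 0.679). Where its probes lie relative to the removed part is not given in the sources used here, so this probe set checks nothing about the labels.

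Skeletal muscle is not a tissue of the gland itself. Mammary glands lie under the skin over the muscles of the body wall and thigh, so a dissected gland can carry some muscle with it. A muscle fibre contracts when thick filaments of myosin pull on thin filaments of actin, and calcium binding to troponin switches the thin filament on. Fast and slow fibres use different genes for many of these parts. Fast fibres in mice carry the myosin heavy chains Myh2 (type IIa), Myh1 (type IIx) or Myh4 (type IIb), while slow fibres carry Myh7, which the heart uses too. In bulk RNA, fewer cells of a type and less RNA per cell cannot be told apart.

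The fast and the shared genes mostly varied widely between glands, many of them in a like pattern, while most slow genes were flat. The range over the 6 arrays, highest minus lowest log2 value, had a median of 4.14 for the 15 fast genes, 2.64 for the 15 shared genes and 0.36 for the 10 slow genes, beside 0.46 for all 18193 genes. It exceeded 2 log2 units for 14 fast, 10 shared and 1 slow gene, or 62.5% of the 40, beside 2.98% of all genes. The spread was wide within the wild type: the range among its 3 arrays alone exceeded the difference of genotype means for 38 of the 40 genes, beside 55.2% of all genes. A range and a difference of means are unlike measures, and small differences are easily exceeded. The knockout range was wider than the difference for some genes (Myh4, 4.30 beside -1.46) and narrower for others (Myot, 1.41 beside -1.91).

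Each gene was centred on its own mean over the 6 arrays and the genes of a group were then averaged, in log2 units. The fast group stood at -1.73, -0.39 and 0.21 in knockout 1, 2 and 3, against 0.92, 2.27 and -1.29 in wild-type 1, 2 and 3. The shared group stood at -1.11, -0.25 and 0.01 in the knockout glands and at 0.82, 1.48 and -0.95 in the wild-type glands. Wild-type 2 and 1 were thus the glands richest in fast and shared muscle transcripts, knockout 1 and wild-type 3 the poorest, and the genotypes overlapped. The slow group stood at -0.01, -0.08 and -0.10 in knockout and at 0.28, -0.02 and -0.07 in wild type, with wild-type 1 alone above the others. Between the highest and lowest array the fast group differed 16.0-fold and the shared group 6.01-fold.

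**Figure D1:**
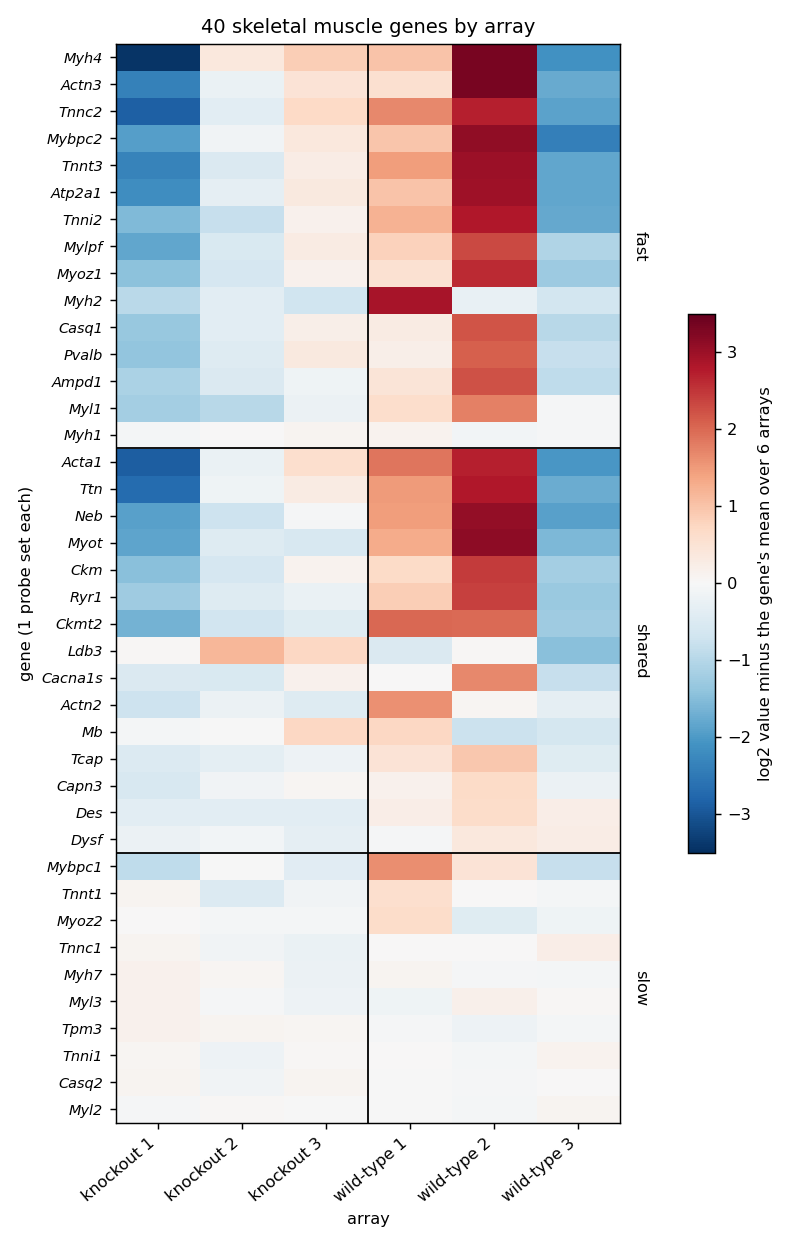
Log2 value of each of the 40 muscle genes minus that gene's mean over the 6 arrays, with genes down the page in fast, shared and slow blocks and the 3 knockout arrays left of the 3 wild-type arrays. Most fast and shared genes are darkest red in wild-type 2 and blue in knockout 1 and wild-type 3, Myh2 is red in wild-type 1 alone, and most slow genes are near white.

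The order of the 6 arrays was shared gene by gene. The order wild-type 2, wild-type 1, knockout 3, knockout 2, wild-type 3, knockout 1, high to low, was the commonest among the 40 and held for 15 of them. These 15 were Myh4, Mylpf, Tnnc2, Tnnt3, Actn3, Casq1, Atp2a1, Ampd1 and Myoz1 of the fast group and Acta1, Ckm, Ttn, Neb, Tcap and Capn3 of the shared group. In all, 38 genes had this order, 0.209% of the genes measured. Among the 23 that are not members, 12 had a range over 1 log2 unit, and these included Pygm, the glycogen phosphorylase of muscle, Pgam2 and Eno3, the muscle phosphoglycerate mutase and enolase, Trdn (triadin of the calcium release complex), Smpx, Nrap, Hrc and Srl. Tnni2, Mybpc2 and Ryr1 had the same order with the lowest 2 arrays exchanged. A looser pattern had wild-type 1 and 2 both above every knockout gland, with wild-type 3 below knockout 2 and 3. It was drawn from the values of these same members, so their share describes them and is not a test. It held for 11 fast, 9 shared and 1 slow gene, or 52.5% of the 40, beside 1.18% of all genes.

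**Figure D2:**
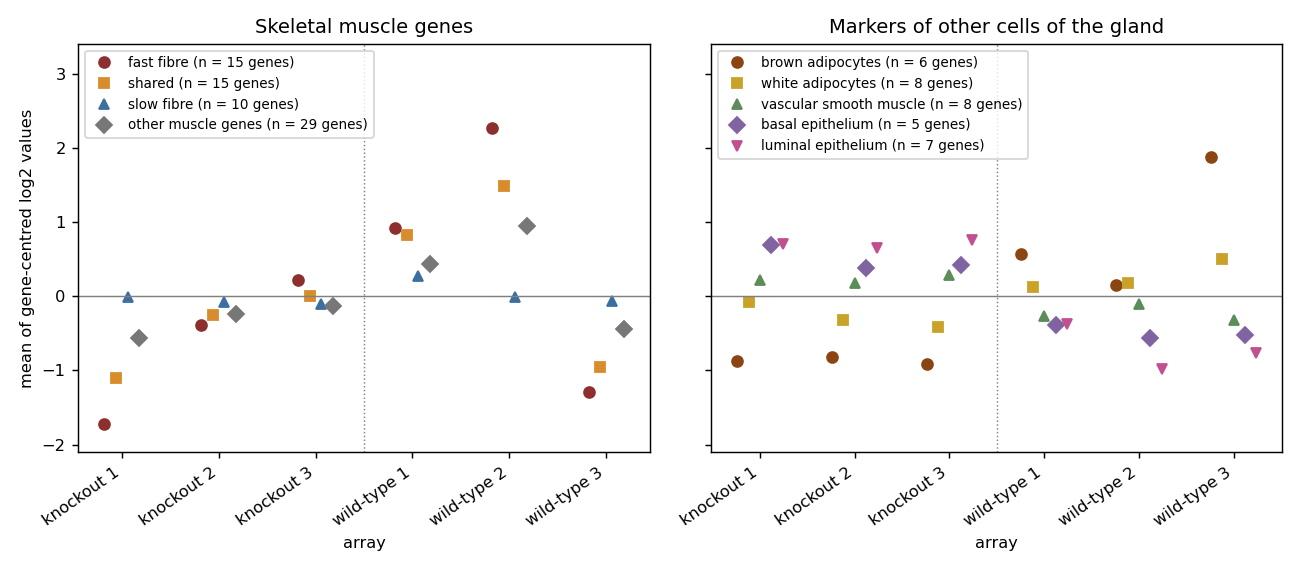
Mean of gene-centred log2 values per array for 4 groups of skeletal muscle genes (left panel) and 5 groups of markers of other cells (right panel), with the knockout arrays left of the wild-type arrays. The fast group spans -1.73 to 2.27 with overlapping genotypes, the slow group stays between -0.10 and 0.28, and the epithelial groups are above 0 in each knockout array and below 0 in each wild-type array.

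The 3 fast myosin heavy chain genes lie side by side on mouse chromosome 11, in the order Myh2, Myh1, Myh4, between Myh3 and Myh8. Their transcripts did not all vary together. The 250 bases before the start of each are printed because Myh4 was highest in wild-type 2, but Myh2 and Myh1 in wild-type 1. Those of Acta1, whose transcript followed Myh4, and of Tnnt1, a slow gene, are added for comparison. They are from RefSeq (GRCm38.p6), 5′ to 3′ on the gene's strand. Capitals mark E boxes (CANNTG, the motif bound by the MyoD family of muscle regulators) and the motif of MEF2, another muscle transcription factor. The windows are Myh2, chr11:67170777-67171026, plus strand. Myh1 is at chr11:67199852-67200101, plus strand. Myh4 is at chr11:67237562-67237811, plus strand. Acta1 is at chr8:123894776-123895025, minus strand. Tnnt1 is at chr7:4515976-4516225, minus strand.
Myh2: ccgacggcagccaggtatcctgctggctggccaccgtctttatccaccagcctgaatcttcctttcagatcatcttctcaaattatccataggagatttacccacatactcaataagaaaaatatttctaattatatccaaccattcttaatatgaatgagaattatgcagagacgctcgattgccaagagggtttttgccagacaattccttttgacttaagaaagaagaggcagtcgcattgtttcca
Myh1: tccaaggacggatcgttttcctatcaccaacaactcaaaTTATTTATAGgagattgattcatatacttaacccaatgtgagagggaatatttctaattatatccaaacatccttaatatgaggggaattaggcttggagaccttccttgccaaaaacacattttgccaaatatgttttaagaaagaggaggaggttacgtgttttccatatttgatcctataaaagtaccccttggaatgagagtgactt
Myh4: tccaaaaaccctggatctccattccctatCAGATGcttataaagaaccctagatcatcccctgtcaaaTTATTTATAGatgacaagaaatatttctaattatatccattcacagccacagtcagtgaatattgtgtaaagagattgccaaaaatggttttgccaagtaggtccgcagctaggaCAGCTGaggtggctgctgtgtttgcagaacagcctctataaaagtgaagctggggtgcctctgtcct
Acta1: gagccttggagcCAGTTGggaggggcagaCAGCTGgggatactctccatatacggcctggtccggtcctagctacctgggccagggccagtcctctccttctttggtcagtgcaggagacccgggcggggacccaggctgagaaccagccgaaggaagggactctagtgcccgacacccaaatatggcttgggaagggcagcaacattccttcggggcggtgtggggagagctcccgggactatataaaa
Tnnt1: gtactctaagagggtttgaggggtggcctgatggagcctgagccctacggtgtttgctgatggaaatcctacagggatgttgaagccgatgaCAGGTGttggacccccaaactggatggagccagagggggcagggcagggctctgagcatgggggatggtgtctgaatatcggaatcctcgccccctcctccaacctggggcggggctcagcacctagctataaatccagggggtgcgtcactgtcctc

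The Myh4 window held 2 E boxes and 1 MEF2 motif, the Myh1 window 0 and 1, and the Myh2 window none of either. The Acta1 window held 2 E boxes and no MEF2 motif, and the Tnnt1 window 1 E box and no MEF2 motif. Searched on both strands in the 42 windows of the 32 members in the RefSeq table, the MEF2 motif was present in 7 (16.7%) and the CArG box, the motif of serum response factor, in 5 (11.9%). Among all 32851 promoter windows of the same length the shares were 2.92% and 1.47%. An E box was in 34 of the 42 (81.0%), beside 66.2% of all windows, and TATAAA in 14.3%, beside 12.4%. The MEF2 motif was in 3 of 11 fast, 2 of 14 slow and 2 of 17 shared windows. No overlap between a marked E box and a MEF2 motif was found in the windows printed. A match is a run of letters, not a shown binding site.

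Myh4, the heavy chain of the fastest, glycolytic IIb fibres, read 5.74, 9.53 and 10.04 in knockout 1, 2 and 3, against 10.16, 12.48 and 7.05 in wild-type 1, 2 and 3. Its highest and lowest arrays were 107-fold apart, the widest range among the 40. Wild-type 2 was highest and knockout 1 lowest, and a second, dimmer Myh4 probe set was also highest in wild-type 2 (3.22, 3.85 and 4.07 in knockout, 4.07, 6.77 and 3.30 in wild type). Myh2, the IIa heavy chain of fast oxidative fibres, read 3.28, 3.85 and 3.53 in knockout glands and 7.11, 3.95 and 3.59 in wild-type glands. Only wild-type 1 stood out for Myh2, while the gland highest for Myh4 was at 3.95.

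Myh1, the IIx heavy chain, was read by 3 probe sets that disagreed. The brightest on average was flat, at 5.04, 5.10 and 5.19 in knockout and 5.22, 4.99 and 5.05 in wild type. The next read 3.42, 4.65 and 5.08 in knockout and 10.05, 3.68 and 2.91 in wild type, and the dimmest 2.89, 4.08 and 4.41 in knockout and 9.15, 3.22 and 2.88 in wild type. Both dimmer sets had wild-type 1 far above the rest, as Myh2 had. Both dimmer sets belong to classes that can match several transcripts, and only the flat set is left when such sets are dropped. A share of the signal of the second set may come from a near-identical myosin. Wild-type 1 was therefore high in Myh2 and, on 2 of 3 probe sets, neither of them unique, in Myh1, and wild-type 2 in Myh4.

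The light chains and troponins of fast fibres mostly followed Myh4, but for Myl1 wild-type 3 lay above every knockout gland. Mylpf, the phosphorylatable fast light chain, read 5.53, 6.82 and 7.65 in knockout and 8.17, 9.67 and 6.29 in wild type. Myl1, the fast essential light chain, read 7.83, 8.05 and 8.81 in knockout and 9.63, 10.78 and 8.98 in wild type. Myl1 was the fast gene whose groups did not overlap. Tnnc2, the calcium sensor of the fast troponin complex, read 4.78, 7.25 and 8.32 in knockout and 9.30, 10.35 and 5.77 in wild type. Tnni2, its inhibitory subunit, read 3.81, 4.56 and 5.53 in knockout and 6.58, 8.16 and 3.57 in wild type. For both troponins wild-type 2 was highest, and wild-type 3 lay among or below the knockout glands. Tnnt3, the tropomyosin-binding subunit, read 4.53, 6.37 and 7.13 in knockout and 8.33, 9.87 and 5.06 in wild type. Mybpc2, the fast myosin-binding protein C, and Actn3, the alpha-actinin of fast Z-discs, ranged over 5.50 and 5.69 log2 units and were highest in wild-type 2 too.

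Fast fibres also carry genes for rapid calcium release and re-uptake and for rapid ATP supply, and these had the same pattern. Atp2a1, the fast calcium pump SERCA1 of the sarcoplasmic reticulum, read 5.16, 7.04 and 7.68 in knockout and 8.33, 10.32 and 5.53 in wild type. Casq1, which stores calcium there, Pvalb, the calcium buffer parvalbumin, Ampd1, the muscle AMP deaminase, and Myoz1, a fast Z-disc protein, had ranges of 3.51, 3.46, 3.34 and 4.05. Each was highest in wild-type 2 and lowest in knockout 1. Over the fast group, 13 of 15 genes were highest in wild-type 2, beside 17.9% of all genes, and the remaining Myh2 and Myh1 were highest in wild-type 1.

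The 10 slow genes were mostly without such a pattern. Myh7, the slow heavy chain, read 3.84, 3.76 and 3.48 in knockout and 3.79, 3.65 and 3.61 in wild type. Myl2, the slow regulatory light chain, read 3.01, 3.08 and 3.04 in knockout and 3.04, 2.98 and 3.14 in wild type. Tnni1, the slow inhibitory troponin, read 4.23, 3.97 and 4.20 in knockout and 4.17, 4.07 and 4.27 in wild type. None of these 3 marked wild-type 1 or 2 out, and Tnnc1, Casq2 and the brightest Myl3 set likewise ranged over only 0.44, 0.23 and 0.35 log2 units. The other Myl3 sets differed from it: one read 4.92, 4.47 and 4.81 in knockout and 4.81, 6.39 and 4.94 in wild type, with wild-type 2 far above the rest, and the groups did not overlap in the remaining one (-0.31 ± 0.10, limma adjusted p = 0.0824). The heart uses most of these genes too. Most of the slow probe sets were dim: 3 of the 10 had a mean at or above the median of all probe sets, beside 11 of the 15 fast ones. The values carry no detection call, so a flat dim set does not show that the transcript was absent.

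Only 3 slow genes had a range over 1 log2 unit, and all 3 were highest in wild-type 1. Tnnt1 and Myoz2 passed that cut only through their wild-type 1 value, so the shared highest gland is no test. Of the other slow genes, Myl2, Tnnc1 and Tnni1 were highest in wild-type 3, Myh7, Casq2 and Tpm3 in knockout 1, and Myl3 in wild-type 2. Mybpc1, the slow myosin-binding protein C, read 4.44, 5.33 and 4.93 in knockout and 6.96, 5.81 and 4.53 in wild type. Tnnt1, the slow troponin T, read 4.51, 3.93 and 4.29 in knockout and 5.01, 4.44 and 4.35 in wild type. Myoz2, a Z-disc protein of slow and heart muscle, read 4.11, 4.03 and 4.03 in knockout and 4.74, 3.68 and 3.95 in wild type. The gland with these higher slow genes was the one high in Myh2. Actn2 and Ckmt2 of the shared group were highest there as well, while 11 of the 15 shared genes were highest in wild-type 2. Csrp3, a muscle LIM protein chosen after its values were seen, was also highest in wild-type 1 (4.25, 4.30 and 4.11 in knockout, 5.78, 4.31 and 4.20 in wild type). Of the 29 other skeletal muscle genes that include Csrp3, 4 were highest in wild-type 1 and 22 in wild-type 2. Tpm3, the slow tropomyosin, is also made by non-muscle cells and read 11.45, 11.41 and 11.38 in knockout and 11.28, 11.12 and 11.23 in wild type, with no overlap and the knockout glands higher.

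Genes that all fibres use followed the fast group, with a few exceptions. Acta1, the skeletal actin of the thin filament, read 7.52, 10.17 and 10.99 in knockout and 12.28, 13.13 and 8.36 in wild type, a range of 48.7-fold. Ttn, the giant spring titin, read 4.02, 6.57 and 7.01 in knockout and 8.21, 9.52 and 4.97 in wild type. Neb, the thin-filament ruler nebulin, read 3.04, 4.23 and 4.92 in knockout and 6.41, 8.04 and 3.06 in wild type. In all 3 the lowest wild-type gland lay inside the knockout range, and 5 of the 6 Ttn probe sets were highest in wild-type 2. Ckm, the cytosolic muscle creatine kinase that regenerates ATP, read 4.95, 5.84 and 6.53 in knockout and 7.08, 8.87 and 5.24 in wild type. Ckmt2, its mitochondrial partner, read 2.32, 3.30 and 3.54 in knockout and 5.97, 5.94 and 2.73 in wild type. Ckmt2 was as high in wild-type 1 as in wild-type 2, whereas Ckm was highest in wild-type 2.

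The machinery that couples excitation to calcium release behaved alike. Ryr1, the calcium release channel, read 5.34, 6.15 and 6.37 in knockout and 7.46, 8.98 and 5.31 in wild type. Cacna1s, the voltage sensor that opens it, read 4.26, 4.25 and 4.93 in knockout and 4.79, 6.45 and 3.97 in wild type. Myot, the Z-disc protein myotilin, read 3.10, 4.51 and 4.39 in knockout and 6.26, 8.09 and 3.37 in wild type. All 3 were highest in wild-type 2. Tcap, which caps titin at the Z-disc, and Capn3, a muscle protease bound to titin, had narrower ranges of 1.43 and 1.22. Mb, the oxygen store myoglobin, departed from the pattern, at 7.00, 7.05 and 7.77 in knockout and 7.77, 6.31 and 6.44 in wild type, with wild-type 2 lowest. A second, dimmer Mb set was flat, at 5.55, 5.39 and 5.75 in knockout and 5.61, 5.62 and 5.69 in wild type, and wild-type 2 was not its lowest.

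**Figure D3:**
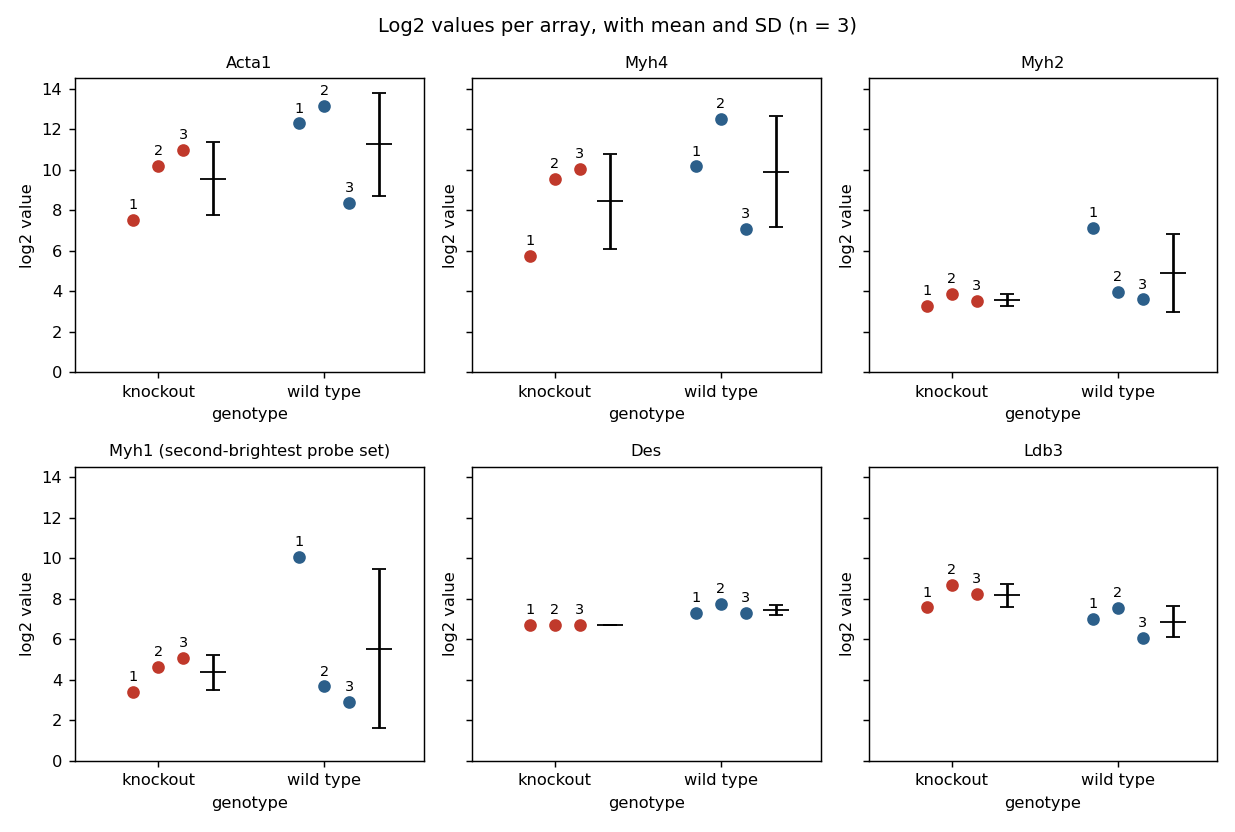
Log2 value per array (numbered points) with mean and SD (bars, n = 3) for 6 muscle genes, knockout left of wild type in each panel. Acta1 and Myh4 are highest in wild-type 2 and lowest in knockout 1, and for Myh4 wild-type 1 is about level with knockout 3. Myh2 and the second-brightest Myh1 probe set are high in wild-type 1 alone, and the groups do not overlap for Des and Ldb3.

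The genotypes were compared in a limma fit over all 45037 probe sets, with p-values adjusted by the Benjamini-Hochberg method and a threshold of 0.05. One of the 40 genes passed, Des, which was lower in knockout glands. Over all 18193 genes, 16.2% passed (7.65% higher and 8.51% lower in knockout), and the count among the muscle genes is read against that share. At an unadjusted p under 0.05 there were 5 of the 40 (12.5%), beside 33.6% of all genes. By sign alone 34 of the 40 were below wild type, beside 9385 of all 18193 genes. They were 14 of 15 fast, 13 of 15 shared and 7 of 10 slow, with median signed differences of -1.38, -0.92 and -0.04, beside -0.01 for all genes. Many members shared an array order, so their signs are not separate results. The genotype groups did not overlap for 5 of the 40 (12.5%), namely Myl1, Tpm3, Des, Dysf and Ldb3, beside 38.3% of all genes. With 3 glands against 3, an exact two-sided permutation test of a single gene cannot go below p = 0.1.

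The differences of most fast and shared genes were not larger than the spread between glands. Acta1 averaged 9.56 ± 1.81 in knockout and 11.25 ± 2.55 in wild type (SD, n = 3 each), a difference of -1.70 ± 1.29 (SE; limma adjusted p = 0.455). Myh4 differed by -1.46 ± 1.49 (limma adjusted p = 0.591), with a 95% interval of -4.90 to 1.98. Tnnt3 and Myot, the lowest of the fast and of the shared genes, differed by -1.74 ± 1.16 and -1.91 ± 1.04 (limma adjusted p = 0.385 and 0.285). These intervals hold both no difference and differences of several-fold. Myl1 came nearest to the threshold among the fast genes, at -1.57 ± 0.44 (limma adjusted p = 0.0563). Among slow genes, the dim and flat Myh7 differed by 0.01 ± 0.12, with a 95% interval of -0.26 to 0.28, while Mybpc1 differed by -0.87 ± 0.54, with a 95% interval of -2.12 to 0.38.

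The count changed most without wild-type 3. With that gland left out, 8 of the 40 genes passed, all lower in knockout: Myl1 (-1.98), Tnni2 (-2.73), Ckmt2 (-2.90), Des (-0.81), Neb (-3.17), Tcap (-1.04), Ryr1 (-2.27) and Myot (-3.18), with limma adjusted p between 0.0102 and 0.0475. Without wild-type 1 the count was 2, Des and Dysf. In the fit without wild-type 3, 8.08% of all genes passed, 4.45% lower and 3.63% higher in knockout. Leaving out wild-type 2 or knockout 1 instead made such differences smaller. Without wild-type 2 they were -0.76 for Acta1, -0.17 for Myh4, -0.69 for Tnnt3 and -0.81 for Myot, and without knockout 1 they were -0.68 for Acta1, -0.11 for Myh4, -1.01 for Tnnt3 and -1.46 for Myot. Among the 8 genes above, Tnni2, Neb, Ryr1 and Tcap were at -0.44, -0.68, -0.43 and -0.36 without wild-type 2, and none but Des passed. Wild-type 3 was also the gland with the highest brown adipocyte markers, for which the gene-centred means were -0.87, -0.82 and -0.91 in knockout and 0.57, 0.15 and 1.88 in wild type. The part of brown fat in these differences was not tested. With the mean of 29 other skeletal muscle genes as a covariate, which carries the same array pattern, 21 of the 40 differences changed sign. In that fit 2 of the 40 passed, Mybpc2 (1.41) and Ldb3 (2.02), both higher in knockout, and Des did not (-0.59, limma adjusted p = 0.0512), while 8.46% of all genes passed, 3.65% higher and 4.82% lower.

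**Figure D4:**
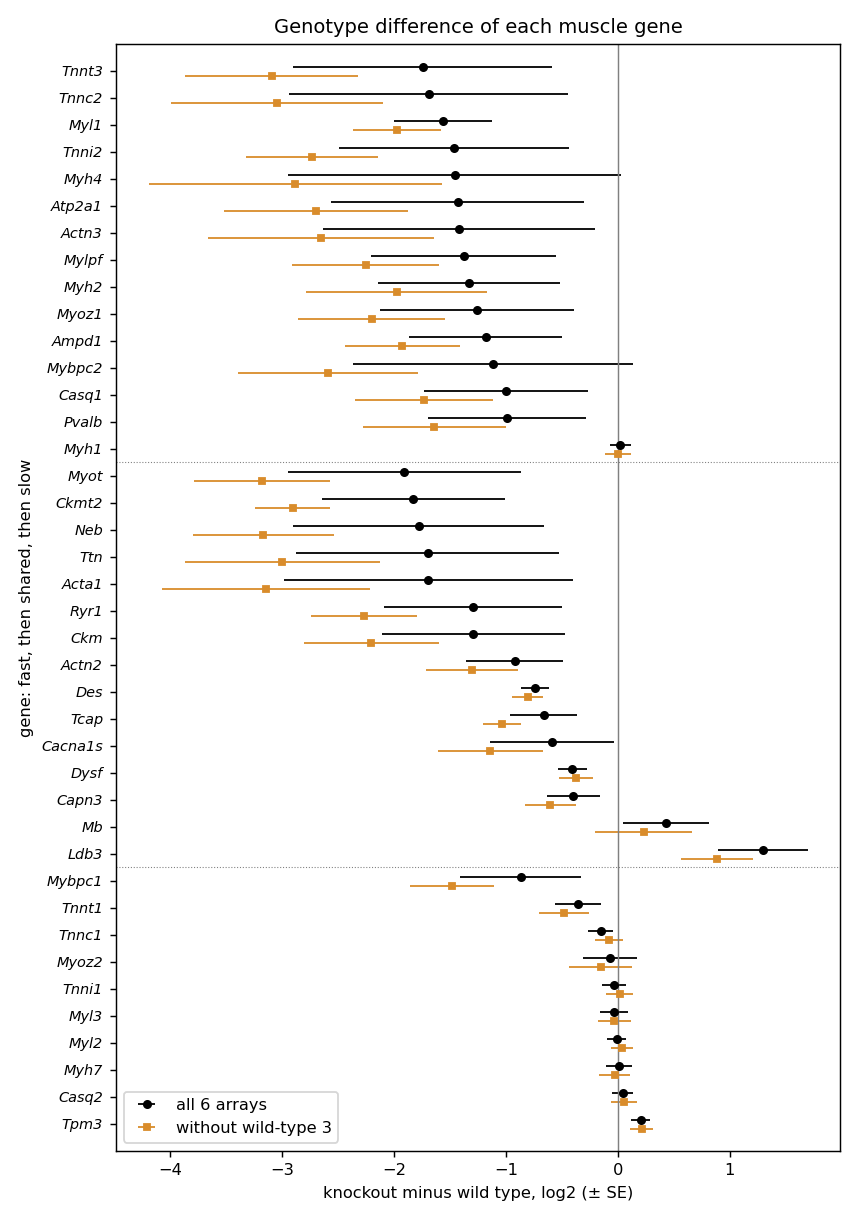
Log2 difference, knockout minus wild type, with its SE for each of the 40 genes over all 6 arrays (black) and without wild-type 3 (orange), in fast, shared and slow blocks down the page. Most fast and shared genes lie below 0 over all arrays and lower without wild-type 3, while Ldb3 lies above 0 in both fits and most slow genes lie near 0.

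Des, the muscle intermediate filament desmin that links Z-discs, read 6.71 in each knockout gland and 7.31, 7.73 and 7.31 in wild type. It was 1.67-fold lower in knockout (-0.74 ± 0.13, limma adjusted p = 0.0108), and wild-type 3, poor in other muscle transcripts, was level with wild-type 1. A second, dimmer Des probe set differed by -0.12 ± 0.09 (limma adjusted p = 0.425), and the mean of both by -0.43 (limma adjusted p = 0.0294). Desmin is made by smooth muscle too, and most smooth muscle markers went the other way. Of 8, 5 were higher in knockout, among them Acta2, the smooth muscle actin, by 0.75 ± 0.10 (limma adjusted p = 0.00426), and 0 lower, and their gene-centred means were 0.22, 0.18 and 0.29 in knockout and -0.26, -0.11 and -0.32 in wild type. Synpo2 of that list, singled out after its values were seen, was below wild type like Des, at -0.59 ± 0.18 (limma adjusted p = 0.0730), with no overlap between the groups. Myoepithelial cells express several of these markers, and basal epithelial genes were higher in knockout as well (4 of 5, beside 7.65% of all genes). The part of these cells in the Des difference was not tested.

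Ldb3, a Z-disc protein that binds alpha-actinin and is made in several isoforms, was the member with the highest positive difference. It read 7.57, 8.69 and 8.24 in knockout and 7.02, 7.55 and 6.05 in wild type, 1.30 ± 0.40 apart (limma adjusted p = 0.0740). The 3 Ldb3 probe sets did not behave alike. A second was also higher in knockout, by 0.82 ± 0.28 (limma adjusted p = 0.101), while the third had the order of Acta1, with 4.71, 5.16 and 5.36 in knockout and 6.52, 7.94 and 4.82 in wild type (-1.35 ± 0.66, limma adjusted p = 0.238). The files do not pair probe sets with isoforms. Dysf, the membrane repair protein dysferlin, read 6.37, 6.48 and 6.25 in knockout and 6.53, 6.95 and 6.84 in wild type (-0.41 ± 0.13, limma adjusted p = 0.0774). Tpm3 was 0.20 ± 0.09 higher (limma adjusted p = 0.172), and Mb differed by 0.43 ± 0.39 (limma adjusted p = 0.534). The dimmer Mb set differed by -0.08 ± 0.11 (limma adjusted p = 0.697).

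Cavin4, the partner of caveolin-3 in muscle caveolae, read 4.59, 4.70 and 4.99 in knockout and 5.16, 6.17 and 4.74 in wild type, with wild-type 2 highest (-0.59 ± 0.32, limma adjusted p = 0.286). Of the 10 measured caveola and dystrophin-complex genes, 0 were higher and 2 lower in knockout, where 7.65% of all genes were higher and 8.51% lower. The 2 were the sarcoglycans Sgca (-0.45 ± 0.11, limma adjusted p = 0.0352) and Sgcb (-0.64 ± 0.09, limma adjusted p = 0.00566). By sign 8 of the 10 were below wild type, and 7 (70%) had an unadjusted p under 0.05, beside 33.6% of all genes. The groups did not overlap for 7 (70%), beside 38.3% of all genes. Cav1, Cav2 and Cavin1 were among them, at -0.39, -0.34 and -0.36 (limma adjusted p = 0.131, 0.0926 and 0.0868). Cav1, Cav2, Cavin1, Sgcb and Sgcd were highest in wild-type 3, and 3 of the 10 genes in wild-type 2. Wild-type 3 was poor in fast and shared muscle transcripts and had the highest gene-centred mean of white adipocyte markers (0.50). Sgcb is not confined to striated muscle. The part of other cells in these differences was not tested. Dmd, the dystrophin gene, differed by 0.51 ± 0.15 (limma adjusted p = 0.0728).

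Further muscle genes varied between glands as well. Of 29 others of skeletal muscle, none passed in either direction, 6 (20.7%) had an unadjusted p under 0.05, beside 33.6% of all genes, and 22 were highest in wild-type 2. Their median difference was -0.45 and their gene-centred means were -0.56, -0.24 and -0.13 in knockout and 0.44, 0.94 and -0.45 in wild type. Those with the smallest p were Sypl2 of the triad membrane (-0.54 ± 0.15, limma adjusted p = 0.0604), Myom1 of the M-band (-1.09 ± 0.40, limma adjusted p = 0.117) and Lmod3, which nucleates thin filaments (-1.11 ± 0.45, limma adjusted p = 0.151). Of 10 glycogen and glycolysis enzymes that muscle uses, 3 passed, all lower in knockout, where 8.51% of all genes were lower. They were Gys1, glycogen synthase (-0.97 ± 0.09, limma adjusted p = 0.00152), Gpd1 (-1.25 ± 0.15, limma adjusted p = 0.00309) and Aldoa, an aldolase (-0.85 ± 0.17, limma adjusted p = 0.0201). These 3 are active in fat cells as well. The enzyme list is not separate from the 29 genes above: Pygm, Eno3, Pgam2 and others of it are among those 29, of which none passed. The muscle-specific Pygm differed by -1.55 ± 0.73 (limma adjusted p = 0.216).

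None of 12 genes of muscle formation and regeneration passed, and 2 (16.7%) had an unadjusted p under 0.05. Myl4 was at -0.44 ± 0.13 and Mef2c at -0.38 ± 0.12 (limma adjusted p = 0.0718 and 0.0737). None of 8 neuromuscular junction genes passed, with Ache, the acetylcholinesterase gene, at -0.35 ± 0.12 (limma adjusted p = 0.106), and 2 (25%) had an unadjusted p under 0.05, where the share of all genes was 33.6%. None of 7 genes specific to heart muscle passed or had an unadjusted p under 0.05. The median ranges of these lists, 0.40, 0.36 and 0.43 log2 units, were near the 0.46 of all genes.

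Array medians lay between 5.77 and 5.80, and correlations over all probe sets between 0.990 and 0.995 within a genotype and between 0.977 and 0.987 across genotypes. Markers of other cells of the gland differed between the genotypes as well, where 7.65% of all genes were higher in knockout and 8.51% lower. All 7 luminal epithelial markers were higher in knockout, with gene-centred means of 0.71, 0.65 and 0.76 in knockout and -0.38, -0.98 and -0.77 in wild type, and their groups did not overlap. Of 8 white adipocyte markers 5 were lower in knockout, and of 6 brown adipocyte markers 2 were, Elovl3 and Ucp1. Of 5 lymphocyte markers 3 were lower. The part of these cell types in the lower muscle values by sign was not tested.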

How the data were processed

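The deposited values are log2, 1 per probe set and array, from RNA of whole glands on Affymetrix mouse arrays. The authors used RMA, per the submitters' processing notes, whose version is not given in the sources used here. RMA corrects background, equalises the distributions of the arrays and summarises each probe set, so it compresses changes of dim sets. Groups come from the sample titles.

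Of 45101 probe sets, 64 controls were left out. The platform annotation gave 1 symbol to 34945, several to 932 (not named) and none to 9160, with symbols updated through Entrez numbers in a RefSeq table (GRCm38.p6). A total of 204 kept the old name.

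All 45037 sets were fitted with limma 3.58.1 (R 4.3.3; lmFit and eBayes, two-sided, genotype as the only term), and p-values were adjusted by Benjamini-Hochberg with a threshold of 0.05. Differences are knockout minus wild type. The fit was tested on simulated data. Alternatives were other scalings, priors and array weights, a filter on dim sets, other choices of probe sets, each array left out, a replicate block, other thresholds and the mean of the 29 other muscle genes as a covariate.

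The 40 members and the lists (fast, slow, shared and other muscle, glycogen and glycolysis, muscle formation, neuromuscular junction, caveola and dystrophin complex, white and brown adipocytes, smooth muscle, basal and luminal epithelium, epidermis, lymphocytes, heart) were chosen with earlier results of these data known. Members may be named, and from each other list the 2 to 4 genes of smallest p and the caveola and dystrophin genes. Outside that rule, Pygm, Pgam2, Eno3, Trdn, Smpx, Nrap and Srl were named for their array order, and Csrp3 and Synpo2 for their values, all after these were seen. Of the epidermis list 1 of 5 genes was higher in knockout (Krt15). Only 3 arrays per genotype limit the precision.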

Additional observations from a re-analysis of the deposited data

How the results depend on the processing

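The number of the 40 genes called, 1 over all arrays (Des, lower in knockout), was 1 under 3 other scalings, array weights, another prior, averaged probe sets and unique probe sets alone. It was 2, both lower, among the 22 genes left by the filter on dim sets (Myl1 joined, limma adjusted p = 0.0423), 2 with the replicate block (1 higher, Ldb3, limma adjusted p = 0.0358) and 2 with the other muscle genes as a covariate, both higher (Mybpc2, limma adjusted p = 0.0162, and Ldb3, limma adjusted p = 0.0103) and 0 lower. It was 0 at a threshold of 0.01 and 4 at 0.10 (1 higher, 3 lower), and ranged over 1 to 8 as each array was left out. Without wild-type 1 it was 2 (Dysf joined), and without wild-type 3 it was 8. Same-numbered arrays did not deviate together (correlations -0.05, 0.19 and -0.02), so the numbers of the replicate block were not taken as pairs. The mean of the slow group, -0.13, became 0.0697 on the 3 genes left by the dim filter.

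With the covariate, whose genes had the same array pattern, 21 of the 40 differences changed sign: Myh4 1.31, Mylpf 0.24, Tnnc2 0.67, Tnni2 0.60, Tnnt3 0.56, Mybpc2 1.41, Actn3 0.95, Casq1 0.41, Atp2a1 0.82, Pvalb 0.34, Ampd1 0.16, Myoz1 0.46, Myh7 -0.00517, Acta1 0.76, Ckm 0.35, Ttn 0.58, Neb 0.49, Ryr1 0.32, Cacna1s 0.43, Capn3 0.0231 and Myot 0.19. Des became -0.59 (limma adjusted p = 0.0512). Signs also changed for Myh1 (-0.81, mean of probe sets), Myh7 (-0.0372, array weights), Myl2 (0.0016 and 0.0012, quantile normalization again and loess) and Tpm3 (-0.14, unique probe sets). Leaving out single arrays changed the sign of Myh1 (-0.0241 to 0.0875), Mybpc2 (-2.59 to 0.16), Myh7 (-0.0644 to 0.12), Myl2 (-0.0479 to 0.0362), Myl3 (-0.12 to 0.0433), Tnni1 (-0.0868 to 0.0447), Myoz2 (-0.29 to 0.24) and Cacna1s (-1.14 to 0.10). The causes were not tested.

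Of 373 member results under the 10 settings that keep all arrays, 343 kept direction and side of the threshold and 26 reversed. Mybpc2 with the covariate, which also passed, is counted among those reversed. Without a change of sign, 3 became significant and 1 lost it.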
